A study of Mus musculus with 16 samples.

Results

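The mRNA libraries of a mouse liver study were compared between 2 diets, high-fat diet plus Betaine (HB) and high-fat diet alone (HF). They are 4 of the 16 samples of the series, 2 libraries per diet, chosen by their labels, and all genes of their count tables were used. Both groups were male C57BL/6 mice, put on their diet at an age of 8 weeks, kept on it for 8 weeks and sampled at 16 weeks, so the high-fat diet is common to both and no lean control enters. The study asked how Betaine bears on RNA methylation and translation in liver. Of its other samples, the ribosome-bound libraries enter 1 alternative fit and the m6A libraries none. Per the labels, pooled material from 2 independent experiments was sequenced, and the sources used here do not say whether the 2 libraries of a diet come from separate pools or from 1 pool. The p-values measure only the spread between the 2 libraries of a diet, which may be technical, and not that between single mice.

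Betaine is a methyl donor: the liver enzyme Bhmt uses it to turn homocysteine back into methionine. Glycolysis breaks glucose down to pyruvate in the cytosol and the citric acid cycle oxidises the acetyl groups made from it in mitochondria, while gluconeogenesis runs several glycolytic steps backwards in the fasted liver. Introns are removed by the spliceosome, and SR proteins, which mark exons for it, are switched by phosphorylation through the Clk and Srpk kinases. Most plasma proteins are made by hepatocytes, enter the endoplasmic reticulum through the translocon, fold there with chaperones, and leave in coated vesicles. When folding falls behind, the sensors Ern1 (IRE1), Atf6 and Eif2ak3 (PERK) raise the transcription of chaperones, which is the unfolded protein response.

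The HB libraries held 22492813 and 18011999 reads assigned to genes, against 11437462 and 11570775 in the HF libraries, and 24539 genes are listed. The libraries of a diet differed from each other by far more than counting error, with a chi-square per degree of freedom of 98.5 in the HB pair and 34.7 in the HF pair. All 10 hepatocyte markers had reads in every library, with a median of 3332 and 2985 RPKM (the authors' read count scaled to transcript length and depth) in the HB libraries and 1643 and 1705 RPKM in the HF libraries. Gene by gene the difference was smaller, with a median log2 change of 0.51. Of the 10, 2 were called higher and none lower in HB, 8 were not called and none held. Of 12 markers of Kupffer cells and macrophages, 6 were called higher and none lower in HB (3 higher under total counts). The shares of all genes tested were 11.3% and 10.1%, and of the 6 only Lyz2 held. All 12 had reads in every library, and their summed level was 530 to 538 CPM (counts scaled to library depth) in HB against 311 to 367 CPM in HF. The 6 not called had log2 changes of -0.21 (Clec4f) to 1.00 (Adgre1). Clec4f, the most abundant of the 12, had 126 and 136.5 CPM in HB, against 160.4 and 143.5 CPM in HF. All 4 neutrophil markers with enough reads to test, of 8 listed, were called lower, and the 8 summed to 7.14 and 7.93 CPM in HB against 18.3 and 43.95 CPM in HF, with 1 and 3 of the 8 at 0 reads in the HB libraries and 3 and 1 in the HF libraries. None of the 4 neutrophil markers held, and without HF replicate 2, the higher HF library, S100a8 and S100a9 had an adjusted p of 0.453 and 0.478. Of 7 red blood cell transcripts, 5 could be tested and 3 were called higher, with a median log2 change of 1.38, and the 7 summed to 546 and 1621 CPM in HB against 384 and 322 CPM in HF. Hbb-bs, a beta globin, held among them with 181 and 471 CPM in HB, against 44.2 and 40.3 CPM in HF (log2 change 2.95 ± 0.43, SE, edgeR adjusted p = 0.00424). The part of these cell types in the results that follow was not tested.

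Of 12817 genes with enough reads to test, 2740 passed an adjusted p of 0.05 (edgeR's quasi-likelihood test with Benjamini-Hochberg adjustment), which is 21.4% of those tested. Of these, 1446 genes (11.3%) were higher and 1294 (10.1%) lower in HB, and the median log2 change of all genes tested was 0.01. Scaling to total counts in place of the trimmed mean of M values (TMM) moved that median to -0.28 and the calls to 783 higher and 2320 lower, so that 25.2% of calls were higher against 52.8% here. Changes below are therefore relative to the typical gene. A fit that added the ribosome-bound libraries, with their HB pair summed, gave no call (edgeR, 1644 genes at an unadjusted p under 0.05). Its common dispersion, the spread between libraries that edgeR estimates over all genes, was 0.481 against 0.0644 without them. In bulk tissue, fewer cells of a type and less RNA per cell cannot be told apart.

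A call rests on 2 libraries per diet, and many calls needed all 4. Both HB libraries lay above both HF libraries in 4204 of the genes tested and below them in 4113, and the groups overlapped in 4500. Among the genes called, the groups overlapped in 3. HB replicate 1 lay farther from the HF mean than HB replicate 2 in 960 of the 1446 genes called higher and in 976 of the 1294 called lower. Leaving out HB replicate 1 ended 2003 of the 2740 calls, HB replicate 2 ended 523, HF replicate 1 ended 2025 and HF replicate 2 ended 1385. A gene is said below to have held where it was called in the same direction in all 4 fits that leave out 1 library, each of which takes its spread from the other diet's pair. That left 184 genes that rose (1.44% of those tested) and 172 that fell (1.34%), with a median log2 change of 2.04 and -1.76.

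**Figure D1:**
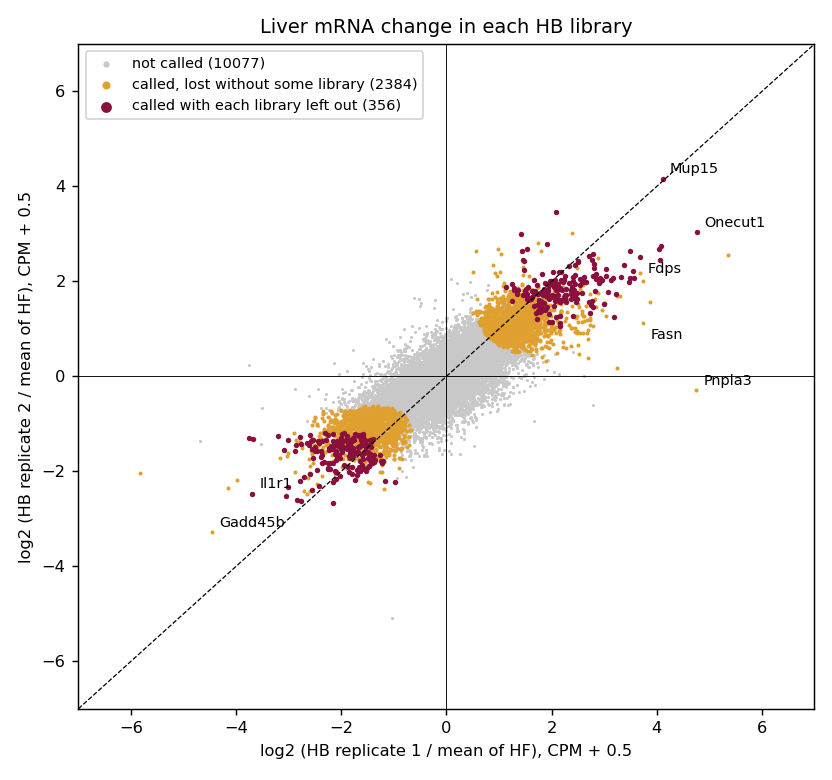
Each point is a gene tested: the x axis is the log2 ratio of HB replicate 1 to the mean of the HF libraries, the y axis the same for HB replicate 2, both on CPM + 0.5, with the dashed line where they are equal. The 356 genes that held lie away from the origin on both axes, while Pnpla3 lies far along the x axis only.

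The genes with a mean of at least 5 CPM that rose most among those that held were not all metabolic enzymes. The transcription factor Onecut1 (HNF6, chr9:74861921-74889648 in the RefSeq annotation of GRCm38.p6), of hepatocytes and bile duct cells, had 49.5 and 14.7 CPM in HB, against 1.89 and 0.785 CPM in HF, and rose by 4.58 ± 0.62 (SE) on the log2 scale (edgeR adjusted p = 0.00403). Mup15, a major urinary protein, had 60.6 and 62.3 CPM in HB, against 1.499 and 4.55 CPM in HF (log2 change 4.34 ± 0.45, SE, adjusted p = 0.00403). The HB libraries agreed closely for Mup15 and differed by more than 3 times for Onecut1, and in both genes they lay far above the HF libraries. Gabbr2, a subunit of the GABA-B receptor, had 18.8 and 7.05 CPM in HB, against 0.631 and 0.706 CPM in HF (log2 change 4.26 ± 0.56, SE, adjusted p = 0.00403). Arl1, a small GTPase of the trans-Golgi, had 45.9 and 14.8 CPM in HB, against 1.26 and 3.296 CPM in HF (log2 change 3.73 ± 0.58, SE, adjusted p = 0.00486). Prkar2a, a regulatory subunit of protein kinase A, had 40.2 and 15.8 CPM in HB, against 2.92 and 3.06 CPM in HF (log2 change 3.23 ± 0.46, SE, adjusted p = 0.00424). In these 3 genes HB replicate 1 was the higher HB library by over 2 times. Sntb1, a syntrophin of the dystrophin complex, and the lipid enzymes Fads2, Fdps and Cyp51 with the gluconeogenic Fbp1 complete the 10 largest rises, with log2 changes of 3.03 to 3.58.

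Among the 10 largest falls that held with a mean of at least 5 CPM were a cytokine receptor and a kinase better known from the eye. Il1r1 (chr1:40222480-40316201), the signalling receptor for interleukin 1, had 27.2 and 64.1 CPM in HB, against 394 and 319 CPM in HF, a log2 change of -2.97 ± 0.41 (SE, edgeR adjusted p = 0.00403). Cyp2b13, a cytochrome P450 that is female-predominant in mouse liver, had 1.57 and 1.78 CPM in HB, against 12.3 and 14.8 CPM in HF (log2 change -3.01 ± 0.37, SE, adjusted p = 0.00403). Zcchc7, a part of the nuclear complex that tags RNA for decay, had 13.5 and 14.7 CPM in HB, against 71.7 and 76.8 CPM in HF (log2 change -2.40 ± 0.28, SE, adjusted p = 0.00403). Every HB library lay over 4 times below every HF library for Il1r1, Cyp2b13 and Zcchc7. Grk1, the kinase of rhodopsin in photoreceptors, had 5.24 and 8.12 CPM in HB, against 35.4 and 38.3 CPM in HF. The sources used here do not say whether counting used the strand, so reads of a gene cannot be told apart from those of an overlapping or antisense transcript. Another 5 of the 10, 4930404H11Rik, Adam11, Olfr856-ps1, Gm17066 and Txlng, had log2 changes of -3.10 to -2.32, and 3 of them are named only as clone, predicted gene or pseudogene.

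Genes of sugar metabolism rose more often than they fell. Of 78 genes tested in 4 lists (glycolysis, gluconeogenesis and glycogen, the citric acid cycle and the pentose phosphate pathway), 28 rose (35.9%) and 2 fell (2.56%), against 11.3% and 10.1% of all genes, and the median log2 change was 0.69 beside 0.01 for all genes. Of the 28, 13 held, against 1.44% of all genes tested, and neither fall did. With HB replicate 1 alone over the HF mean the median was 0.75, and with HB replicate 2 alone 0.59. Under total counts 21 rose and 4 fell with a median of 0.40, where the median of all genes was -0.28.

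Of 29 glycolysis genes, 10 rose, 1 fell and 5 held, with a median log2 change of 0.58. Ldha (chr7:46842274-46855627), which interconverts pyruvate and lactate, had 1064 and 1046 CPM in HB, against 270.2 and 237 CPM in HF, a log2 change of 2.06 ± 0.30 (SE, edgeR adjusted p = 0.00424). Tpi1, which interconverts the triose phosphates, had 485 and 413 CPM in HB, against 107 and 101 CPM in HF (log2 change 2.11 ± 0.30, SE, adjusted p = 0.00424). Pgk1, the first ATP-forming step, had 360.3 and 220.1 CPM in HB, against 67.4 and 66 CPM in HF (log2 change 2.12 ± 0.33, SE, adjusted p = 0.00486). In all 3 every HB library was over 3 times the higher HF library, and the HB libraries were nearest to each other for Ldha. Enolase 1, Eno1, had 547 and 514 CPM in HB, against 91.3 and 100.3 CPM in HF (log2 change 2.47 ± 0.30, SE, adjusted p = 0.00403). Its near-identical copy Eno1b, which may share reads with it, had 392 and 257 CPM in HB, against 88.7 and 84.7 CPM in HF and held as well, so how the reads divide between the 2 is uncertain. Aldoc, an aldolase best known from brain, had 10.2 and 6.98 CPM in HB, against 1.34 and 1.57 CPM in HF (log2 change 2.56 ± 0.43, SE, adjusted p = 0.00598), and held.

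Other glycolytic genes were called but did not hold, or were not called. Pklr, the liver pyruvate kinase, had 659 and 234 CPM in HB, against 78.2 and 128 CPM in HF (log2 change 2.12 ± 0.46, SE, edgeR adjusted p = 0.0118). Pklr was not called without HB replicate 1 (adjusted p = 0.0787), and HB replicate 1 was more than 2 times HB replicate 2. Pgam1, phosphoglycerate mutase, had 216 and 163 CPM in HB, against 64.3 and 63.7 CPM in HF (log2 change 1.57 ± 0.29, SE, adjusted p = 0.00779), and its call was lost without HF replicate 1 (adjusted p = 0.0513). Gapdh, the glyceraldehyde phosphate dehydrogenase often used to normalise, had 2480 and 3096 CPM in HB, against 1368 and 1363 CPM in HF (log2 change 1.03 ± 0.29, SE, adjusted p = 0.0299), and lost its call without any 1 of the 4 libraries, with adjusted p from 0.0504 to 0.172, and under total counts (adjusted p = 0.076). Eno3, the muscle enolase, was the member that fell, with 5.996 and 13.7 CPM in HB, against 33.7 and 27.9 CPM in HF (log2 change -1.65 ± 0.39, SE, adjusted p = 0.0155). Eno3 was not called without HB replicate 1 (adjusted p = 0.0595). Pfkl, the liver phosphofructokinase and a regulated step of the pathway, had 47.1 and 61.95 CPM in HB, against 47.02 and 29.4 CPM in HF and was not called (adjusted p = 0.249).

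Genes of gluconeogenesis and glycogen did not move as one. Fbp1, the fructose bisphosphatase of gluconeogenesis, had 1328 and 739 CPM in HB, against 110.1 and 126 CPM in HF, a log2 change of 3.13 ± 0.36 (SE, edgeR adjusted p = 0.00403), and held. Gbe1, the glycogen branching enzyme, had 177 and 62.6 CPM in HB, against 19.3 and 17.4 CPM in HF (log2 change 2.70 ± 0.44, SE, adjusted p = 0.00523), and held. Both lay far above HF in each HB library. Pck1, which makes phosphoenolpyruvate, had 3246 and 6325 CPM in HB, against 5420 and 3484 CPM in HF, and G6pc, which frees glucose, had 219 and 319 CPM in HB, against 632 and 221 CPM in HF. The diets overlapped for both and neither was called (adjusted p = 0.862 and 0.288). Pygl, glycogen phosphorylase, rose (log2 change 1.48 ± 0.39, SE, adjusted p = 0.0229) with 541 and 227 CPM in HB, against 130.1 and 145 CPM in HF. Pygl was not called without HB replicate 1 or HF replicate 1 (adjusted p = 0.0969 and 0.0792), nor in the RPKM fits (adjusted p = 0.0746 and 0.0822). Ppp1r3c, which targets a phosphatase to glycogen, had 22.5 and 31.5 CPM in HB, against 122 and 31.9 CPM in HF, and its call as lower rests on HF replicate 1 (adjusted p = 0.794 without it) as well as on both HB libraries (adjusted p = 0.291 and 0.146 without replicates 1 and 2). The fall of Ppp1r3c was also lost with the length trend removed, in voom and in both RPKM fits (adjusted p = 0.0684 to 0.0989).

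Of 26 citric acid cycle genes, 12 rose, none fell and 6 held, with a median log2 change of 0.88. Suclg1 and Sucla2 encode 2 subunits of succinyl-CoA ligase, and Sdha and Sdhd those of succinate dehydrogenase that carry the flavin and anchor the complex in the membrane. Suclg1 (chr6:73248505-73276907) had 299.5 and 257 CPM in HB, against 29.7 and 56.1 CPM in HF (log2 change 2.70 ± 0.36, SE, edgeR adjusted p = 0.00403). Sdha had 603 and 332 CPM in HB, against 78.3 and 78.7 CPM in HF (log2 change 2.58 ± 0.35, SE, adjusted p = 0.00403). Sdhd had 237 and 159.6 CPM in HB, against 35.4 and 43.7 CPM in HF (log2 change 2.33 ± 0.32, SE, adjusted p = 0.00403). The HB libraries were at least 3 times the highest HF library for these 3 genes, with HB replicate 1 the higher. Mdh1 and Mdh2, the cytosolic and mitochondrial malate dehydrogenases, rose by 1.97 ± 0.30 and 1.73 ± 0.29 (SE) on the log2 scale (adjusted p = 0.00477 and 0.00598). Within succinate dehydrogenase the subunits differed: Sdhb, the iron-sulphur subunit, had 328 and 399 CPM in HB, against 257 and 264 CPM in HF and was not called (log2 change 0.48 ± 0.29, SE, adjusted p = 0.246). Idh2, the mitochondrial NADP-dependent isocitrate dehydrogenase, rose with 149 and 155 CPM in HB, against 55.7 and 53.5 CPM in HF. Idh2 was not called without HF replicate 1 or HF replicate 2 (adjusted p = 0.0599 and 0.0543). In the pentose phosphate pathway, which makes NADPH, 2 of 7 genes rose, Pgd and Taldo1, at log2 changes of 1.24 and 1.09. Neither held, and Taldo1 was not called under total counts (adjusted p = 0.0617) or with the length trend removed (adjusted p = 0.0564).

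**Figure D2:**
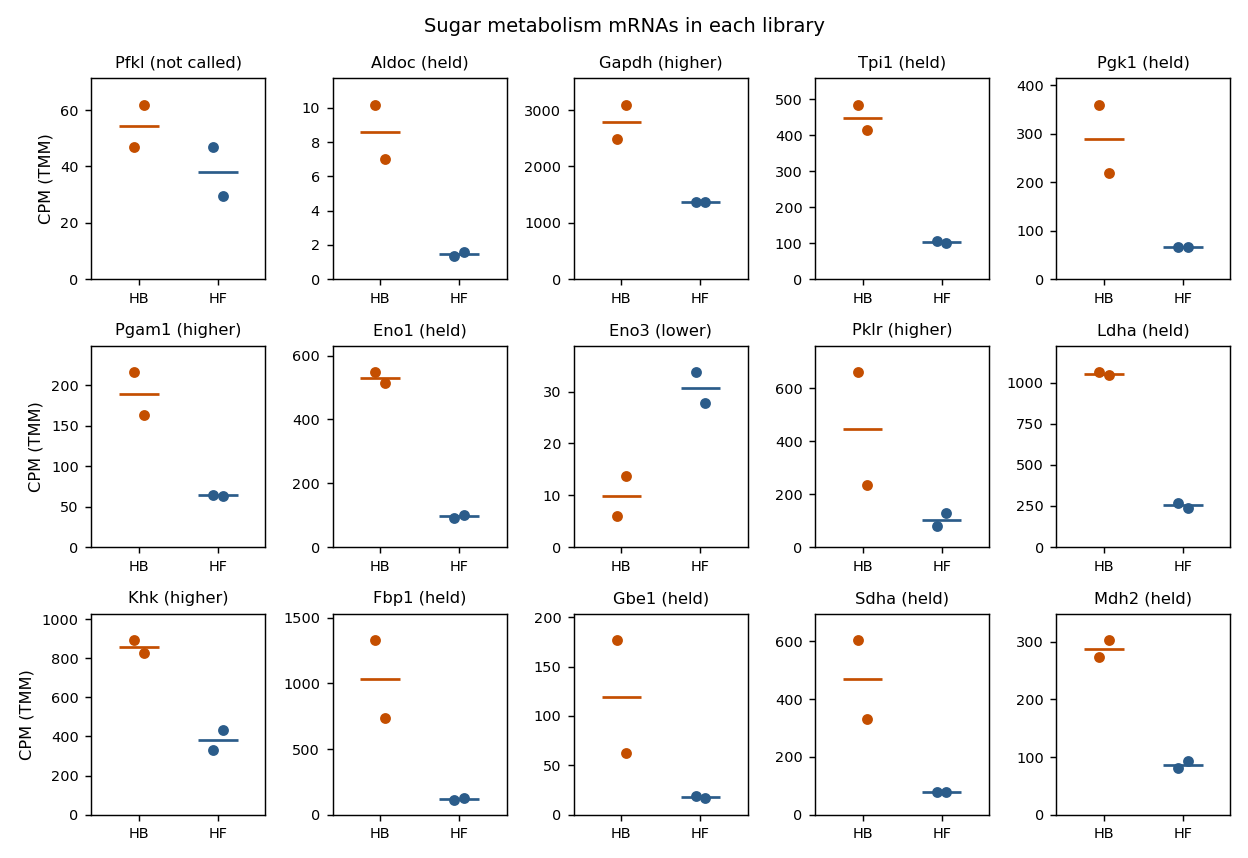
CPM (TMM-scaled) of 15 genes of sugar metabolism and the citric acid cycle in each library, HB left and HF right, with points for libraries and a bar for the mean of 2. Eno1, Ldha, Fbp1 and Sdha are separated widely between diets, Eno3 is lower in HB, and Pfkl was not called.

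Splicing genes fell more often than they rose. Of 118 tested in 4 lists, 33 fell (28.0%) and 8 rose (6.78%), against 10.1% and 11.3% of all genes, with a median log2 change of -0.22. Of those, 11 held, all falls. Under total counts 41 fell and 4 rose, with the median of all genes at -0.28. Genes called lower were also long: the median longest transcript was 3422 bases for calls lower, 1955 bases for calls higher and 2820 bases for genes not called. With a trend on transcript length removed from each library, 34 splicing genes fell and 5 rose.

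SR proteins and their kinases made up 16 of the 33 falls. Of 9 kinases, 5 fell, none rose and 4 held, with a median log2 change of -1.46. Clk1 (chr1:58411988-58424088), which phosphorylates SR proteins in the nucleus, had 73.3 and 72.2 CPM in HB, against 290.0 and 254 CPM in HF, a log2 change of -1.90 ± 0.29 (SE, edgeR adjusted p = 0.00477). Clk4, its close paralog, had 39.3 and 41.6 CPM in HB, against 168 and 137 CPM in HF (log2 change -1.92 ± 0.29, SE, adjusted p = 0.00463). Srpk2, which phosphorylates SR proteins in the cytoplasm, had 17.04 and 16.3 CPM in HB, against 55.1 and 50.1 CPM in HF (log2 change -1.66 ± 0.27, SE, adjusted p = 0.00584). In these 3 genes the libraries of each diet lay close together and the diets were far apart. Clk2 had 17.5 and 24.6 CPM in HB, against 54.4 and 61.9 CPM in HF and held too (log2 change -1.47 ± 0.29, SE, adjusted p = 0.00894). Clk3 had 39.6 and 77.6 CPM in HB, against 208 and 114 CPM in HF, and its call was lost without HB replicate 1 or HF replicate 1 (adjusted p = 0.14 and 0.179). Srpk1 had 16.8 and 17.7 CPM in HB, against 33.7 and 19.5 CPM in HF and was not called (adjusted p = 0.186).

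Of 23 SR and SR-like proteins, 11 fell, none rose and 3 held, with a median log2 change of -0.87. Srsf11, an SR protein of splice site choice, had 79.6 and 111 CPM in HB, against 512 and 366 CPM in HF (log2 change -2.21 ± 0.33, SE, edgeR adjusted p = 0.00462). Luc7l2, related to a yeast U1 snRNP protein, had 203 and 183 CPM in HB, against 680.3 and 799 CPM in HF (log2 change -1.94 ± 0.30, SE, adjusted p = 0.00486). Tra2a, an exon enhancer binding protein, had 26.2 and 28.9 CPM in HB, against 89.9 and 86.6 CPM in HF (log2 change -1.68 ± 0.27, SE, adjusted p = 0.00531). Each HB library lay below every HF library, by 3 times or more, in Srsf11, Luc7l2 and Tra2a. The classic members were split. Srsf7 had 37.8 and 45.1 CPM in HB, against 112 and 94.8 CPM in HF and fell (log2 change -1.32 ± 0.28, SE, adjusted p = 0.0109). Srsf7 was not called without HB replicate 1 or HF replicate 1 (adjusted p = 0.0513 and 0.0813). Srsf3 had 63.1 and 43.5 CPM in HB, against 64.1 and 53.8 CPM in HF and Srsf1 had 103 and 70.5 CPM in HB, against 93.02 and 104 CPM in HF, with overlapping groups in both genes and no call (adjusted p = 0.752 and 0.678).

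Core spliceosome genes moved both ways: of 60, 13 fell and 7 rose, beside 10.1% and 11.3% of all genes. The 7 rises lie near that share, and the 4 genes that held all fell. Prpf38b had 45.02 and 48.3 CPM in HB, against 169.5 and 139.8 CPM in HF (log2 change -1.73 ± 0.28, SE, edgeR adjusted p = 0.00579). Prpf39, a U1 snRNP-associated factor, had 23.9 and 21.6 CPM in HB, against 70.5 and 75.1 CPM in HF (log2 change -1.68 ± 0.27, SE, adjusted p = 0.00535). Rbm5 and Rbm25, RNA-binding regulators of splice site choice, had log2 changes of -1.59 ± 0.28 and -1.55 ± 0.29 (SE, adjusted p = 0.0071 and 0.00807). The 7 that rose were mainly small proteins of the snRNP core and SF3b. Snrpb, a core protein of most snRNPs, had 56.6 and 44.6 CPM in HB, against 18.5 and 16.2 CPM in HF (log2 change 1.54 ± 0.28, SE, adjusted p = 0.00741). Snrpb was not called without HF replicate 2 (adjusted p = 0.0508), and Lsm4, Snrpc, Sf3b6, Lsm8, Sf3b5 and Prpf19 had log2 changes of 0.97 to 1.44. Each of these 6 was uncalled when at least 1 of the libraries was left out. Under total counts Lsm8, Sf3b5 and Prpf19 were not called (adjusted p = 0.0797 to 0.103). With the length trend removed 4 core spliceosome genes rose in place of 7, and Lsm8, Sf3b5 and Sf3b6 were not called (adjusted p = 0.1, 0.102 and 0.0553). Sf3b1, the largest SF3b subunit, had 138 and 167 CPM in HB, against 526 and 375 CPM in HF and fell (log2 change -1.56 ± 0.31, SE, adjusted p = 0.00903). Sf3b1 was not called without HB replicate 1 or HF replicate 1 (adjusted p = 0.0534 and 0.0634).

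Of 26 hnRNP genes, 4 fell and 1 rose, none held and the 5 lie near the share of all genes. Hnrnph1 had 87.9 and 102 CPM in HB, against 288 and 245 CPM in HF and fell (log2 change -1.49 ± 0.29, SE, edgeR adjusted p = 0.00864). Hnrnph1 was not called without HF replicate 1 (adjusted p = 0.0503). Hnrnpa1, which often opposes SR proteins, had 59.1 and 40.05 CPM in HB, against 44.3 and 38.6 CPM in HF, with overlapping diets, and was not called (adjusted p = 0.547). Other genes of RNA processing were found among the 172 falls that held and were chosen after their values were seen. Ccnl1, a cyclin that binds splicing-linked kinases, had 37.6 and 36.2 CPM in HB, against 198 and 143 CPM in HF (log2 change -2.20 ± 0.30, SE, adjusted p = 0.00403). Srek1, an SR-related regulator, had 24.3 and 30.7 CPM in HB, against 127 and 110.1 CPM in HF (log2 change -2.11 ± 0.29, SE, adjusted p = 0.00403). In both, every HB library lay over 3 times below every HF library. Ccnl2, Sfswap, Rbm6 and Paxbp1 had log2 changes of -1.97, -1.78, -1.57 and -1.80 and held.

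Noncoding RNAs also fell more often than they rose. Of 477 genes with noncoding RefSeq IDs alone, 71 (14.9%) fell and 16 (3.35%) rose, with a median log2 change of -0.45, against 9.91% and 11.6% of 12340 coding genes. Of 12 nuclear noncoding RNAs and small nucleolar RNA hosts, 6 fell, none rose and none held. Without HB replicate 1, HF replicate 1 or HF replicate 2 that count was 0, 2 or 1. Neat1, the scaffold of paraspeckles, had 459 and 446 CPM in HB, against 979 and 1248 CPM in HF (log2 change -1.30 ± 0.30, SE, edgeR adjusted p = 0.014). Neat1 was not called without HB replicate 1 or HF replicate 2 (adjusted p = 0.0542 and 0.0826). Malat1, an abundant RNA of nuclear speckles where splicing factors gather, had 686 and 569.5 CPM in HB, against 493 and 576 CPM in HF, with overlapping diets, and was not called (log2 change 0.23 ± 0.29, SE, adjusted p = 0.594).

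**Figure D3:**
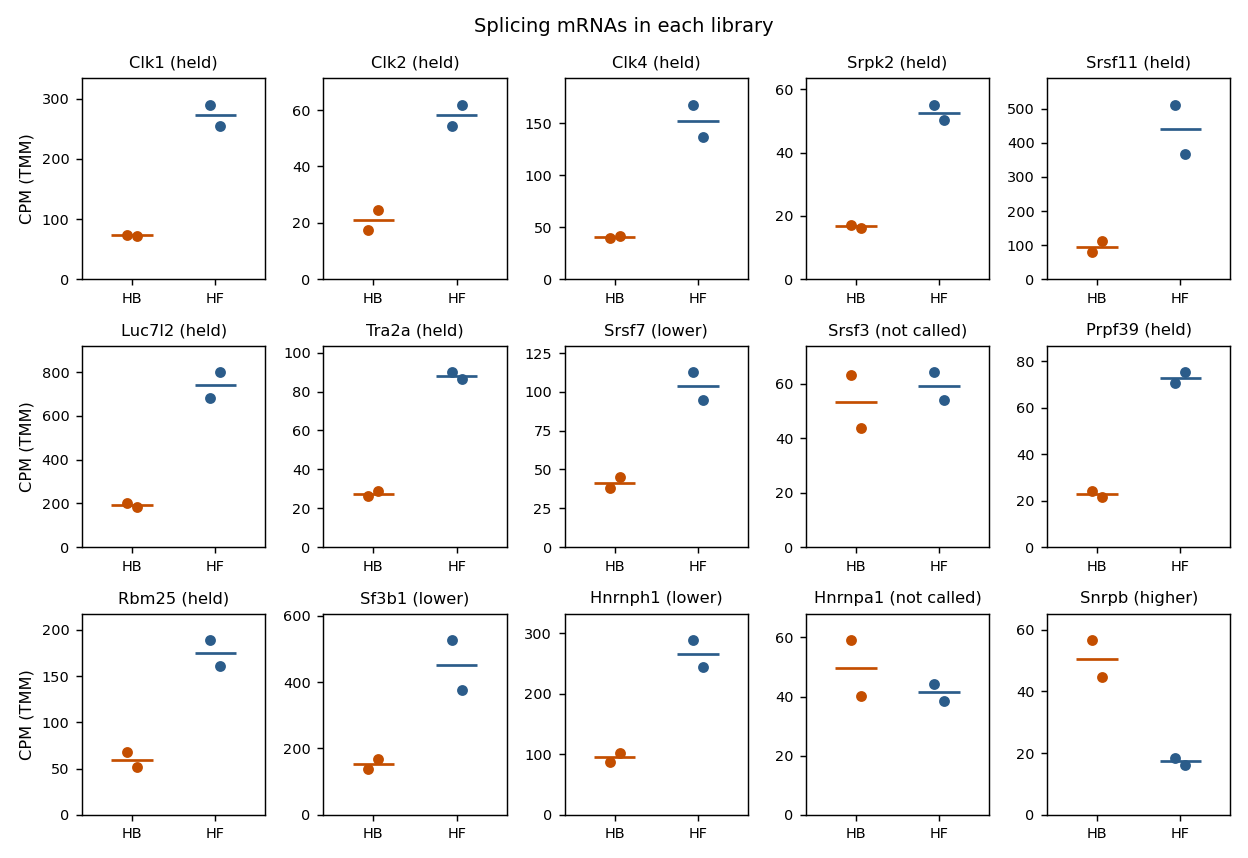
CPM (TMM-scaled) of 15 splicing genes in each library, HB left and HF right, with points for libraries and a bar for the mean of 2. The kinases Clk1, Clk2, Clk4 and Srpk2 are lower in both HB libraries, Srsf3 and Hnrnpa1 overlap, and Snrpb is higher in HB.

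Promoters of Clk4, Tra2a and Ldha each had the cyclic AMP response element TGACGTCA before the start, and are shown because Clk4 and Tra2a fell and held while Ldha rose and held. Counts are of genes with a promoter matched by symbol, a gene counting where any of its promoters had the motif. It was found in 348 of 9979 such genes among those tested (3.49%) and 549 of 27025 mouse genes (2.03%). In the lists of these 3 genes it was found in 1 of 8 SR kinase genes, 1 of 20 SR protein genes and 1 of 27 glycolysis genes. Other lists had it too, among them 4 of 49 core spliceosome genes (0 of the 16 called) and 3 of 23 immediate early genes. The citric acid cycle had it in 2 of 23 genes, of which Mdh2 rose and held, and the hnRNPs in 0 of 23. Promoters were read from 250 bases before to 50 after the start on both strands, and a match describes these letters only. Sequences are from RefSeq, GRCm38.p6, on the strand of the gene, with the motif in capitals: Clk4 at chr11:51263029-51263076 on the plus strand, Tra2a at chr6:49264053-49264099 on the minus strand and Ldha at chr7:46845772-46845803 on the plus strand.
Clk4: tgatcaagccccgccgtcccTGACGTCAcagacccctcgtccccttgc
Tra2a: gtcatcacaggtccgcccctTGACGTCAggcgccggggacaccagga
Ldha: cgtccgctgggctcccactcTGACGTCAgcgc

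Of 199 stress genes tested in 7 lists, 39 rose (19.6%) and 15 fell (7.54%), against 11.3% and 10.1% of all genes, so the falls were no more frequent than over all genes. The median log2 change was 0.24, and 4 rises and 2 falls held, near the 1.44% and 1.34% of all genes tested. Under total counts the split turned to 18 rises and 31 falls with a median of -0.04, where the median of all genes was -0.28. Of 30 immediate early genes, 1 rose and 2 fell, below the 21.4% of all genes. Fos had 1.95 and 2.48 CPM in HB, against 3.23 and 3.38 CPM in HF, and Jun had 44.6 and 52.9 CPM in HB, against 71.7 and 36.3 CPM in HF. Neither was called (adjusted p = 0.363 and 0.781), and Jun overlapped between diets. Dusp1, a phosphatase induced by stress kinases, had 75.1 and 103 CPM in HB, against 259.7 and 158 CPM in HF and fell (log2 change -1.23 ± 0.33, SE, edgeR adjusted p = 0.0255). Dusp1 was not called without HB replicate 1 or HF replicate 1 (adjusted p = 0.122 and 0.282).

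Of 20 p53 and DNA damage genes, 3 fell, none rose and none held, and 3 of 20 lies near the 10.1% of all genes called lower. Gadd45b, a stress-induced growth arrest gene, had 0.857 and 2.54 CPM in HB, against 50.3 and 7.77 CPM in HF (log2 change -4.13 ± 0.78, SE, edgeR adjusted p = 0.0079). HF replicate 1 was over 6 times HF replicate 2, and the call was lost without HB replicate 1 (adjusted p = 0.116). Mdm2, the ubiquitin ligase that restrains p53, had 26.8 and 29.3 CPM in HB, against 67.6 and 67.9 CPM in HF (log2 change -1.27 ± 0.27, SE, adjusted p = 0.0106). Mdm2 was not called without HF replicate 1 (adjusted p = 0.0647). Cdkn1a (p21), the textbook p53 target, had 8.19 and 38.3 CPM in HB, against 81.4 and 11.5 CPM in HF, with overlapping diets and no call (adjusted p = 0.358). Mdm4, a relative of Mdm2 outside the list and chosen after its values were seen, had 55.7 and 67.1 CPM in HB, against 162 and 220.1 CPM in HF, fell and held (log2 change -1.64 ± 0.30, SE, adjusted p = 0.00741).

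Of 35 endoplasmic reticulum stress genes, 8 rose and 2 fell, beside 11.3% and 10.1% of all genes. Under total counts 2 rose and 6 fell, where 783 and 2320 of all 12817 genes tested did. The median log2 change was 0.37, and 1 of each direction held. Ern1 (IRE1, chr11:106397620-106487796), the sensor that splices Xbp1 mRNA, had 27.2 and 18.4 CPM in HB, against 4.103 and 4.08 CPM in HF (log2 change 2.48 ± 0.35, SE, edgeR adjusted p = 0.00424). Syvn1 (HRD1), the ligase that marks misfolded proteins for decay, had 123 and 206 CPM in HB, against 657 and 507 CPM in HF (log2 change -1.83 ± 0.34, SE, adjusted p = 0.00776). These 2 genes of the same response moved in opposite directions. Pdia6, a disulphide isomerase, had 386 and 365 CPM in HB, against 98.5 and 152 CPM in HF (log2 change 1.59 ± 0.32, SE, adjusted p = 0.00903). Pdia6 was not called without HF replicate 1 (adjusted p = 0.109). Hspa5 (BiP), the main chaperone of the response, had 734 and 390.2 CPM in HB, against 310.5 and 503 CPM in HF, and Xbp1 had 211 and 106 CPM in HB, against 104 and 139 CPM in HF. Both overlapped between diets and were not called (adjusted p = 0.381 and 0.461). Ddit3 (CHOP), the factor linked to cell death, had 12.99 and 20.9 CPM in HB, against 30.3 and 36.2 CPM in HF and fell (log2 change -0.97 ± 0.32, SE, adjusted p = 0.0491). Ddit3 was not called without HB replicate 1, HF replicate 1 or HF replicate 2 (adjusted p = 0.142, 0.14 and 0.227).

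The promoters of this list are shown because they share a known element while their mRNAs differed. The endoplasmic reticulum stress element is CCAAT and CCACG with 9 bases between them. It was found on either strand in 9 of the 30 genes of the list that had a promoter matched by symbol. Counted by gene in the same way, it was found in 20 of 9979 genes tested (0.2%) and in 37 of 27025 mouse genes (0.137%). Of the 9 genes, Pdia6, Dnajc3 and Canx rose (Dnajc3 and Canx not under total counts, adjusted p = 0.0559 and 0.0683), Syvn1 fell, and Hspa5, Hsp90b1, Creld2, Calr and Derl3 were not called, with log2 changes of -0.78 to 0.74. Sequences are from RefSeq, GRCm38.p6, on the strand of the gene, with both parts of the element in capitals. Hspa5 is at chr2:34772005-34772063 (plus strand), Pdia6 at chr12:17266471-17266529 (plus), Dnajc3 at chr14:118937807-118937865 (plus), Canx at chr11:50325780-50325838 (minus) and Syvn1 at chr19:6046512-6046570 (plus).
Hspa5: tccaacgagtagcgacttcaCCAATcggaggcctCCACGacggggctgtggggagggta
Pdia6: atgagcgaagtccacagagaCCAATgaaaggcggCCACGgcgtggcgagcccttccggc
Dnajc3: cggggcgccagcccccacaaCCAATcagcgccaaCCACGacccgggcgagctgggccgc
Canx: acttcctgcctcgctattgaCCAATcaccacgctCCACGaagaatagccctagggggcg
Syvn1: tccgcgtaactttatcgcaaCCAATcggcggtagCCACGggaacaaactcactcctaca

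Of 37 heat shock and chaperone genes, 11 rose and 2 fell, beside 11.3% and 10.1% of all genes. Their median log2 change was 0.66, and none held. Under total counts 5 rose and 2 fell. Hspa1b, an inducible cytosolic Hsp70, had 133 and 128 CPM in HB, against 21.5 and 47.5 CPM in HF (log2 change 1.92 ± 0.37, SE, edgeR adjusted p = 0.00817). Hspa1b was not called without HB replicate 1 or HF replicate 1 (adjusted p = 0.0595 and 0.066). Its HB libraries lay over 2 times above both HF libraries. It is nearly identical to Hspa1a, so reads may be divided between them. Hspa9 and Hspd1, the mitochondrial Hsp70 and Hsp60, had log2 changes of 1.65 ± 0.36 and 1.23 ± 0.33 (SE, adjusted p = 0.012 and 0.0233). The call of Hspa9 was lost without HB replicate 1 (adjusted p = 0.0501), and that of Hspd1 without HB replicate 1, HF replicate 1 or HF replicate 2 (adjusted p = 0.0769, 0.146 and 0.102) or under total counts (adjusted p = 0.0564). Cct5, a subunit of the cytosolic chaperonin, had 122 and 91.8 CPM in HB, against 36.9 and 39.6 CPM in HF and rose (log2 change 1.48 ± 0.28, SE, adjusted p = 0.00824). Cct5 was not called without HF replicate 1 (adjusted p = 0.0691). Hspa8, the constitutive Hsp70, had 1934 and 2083 CPM in HB, against 2261 and 1751 CPM in HF with overlapping diets, and was not called (log2 change 0.00 ± 0.29, SE, adjusted p = 0.997). The 2 members that fell, Hsf1 and Hsf2, are transcription factors of the heat shock response. Hsf1 had 17.6 and 29.9 CPM in HB, against 61.5 and 56.9 CPM in HF (log2 change -1.32 ± 0.31, SE, adjusted p = 0.0161). Hsf1 was not called without HB replicate 1 or HF replicate 1 (adjusted p = 0.0603 and 0.0701). Hsf2 had 16.2 and 16.6 CPM in HB, against 31.7 and 37.2 CPM in HF (adjusted p = 0.0231). Hsf2 was not called without HB replicate 1, HF replicate 1 or HF replicate 2 (adjusted p = 0.0635, 0.105 and 0.165).

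Of 28 genes of the NRF2 antioxidant response, 11 rose and 1 fell, beside 11.3% and 10.1% of all genes. Their median log2 change was 0.62, and 2 rises held. Under total counts 6 rose and 3 fell. Prdx1, a peroxidase, had 827 and 649 CPM in HB, against 187 and 221 CPM in HF (log2 change 1.86 ± 0.30, SE, edgeR adjusted p = 0.00578). Gsta3, a glutathione transferase, had 2051 and 1590 CPM in HB, against 634 and 631 CPM in HF (log2 change 1.52 ± 0.30, SE, adjusted p = 0.00876). Both held, and their HB libraries lay more than 2 times above the HF libraries. Nqo1, a quinone reductase much used as a readout of NRF2, had 11.04 and 9.204 CPM in HB, against 4.34 and 4.002 CPM in HF (log2 change 1.28 ± 0.35, SE, adjusted p = 0.0265). Nqo1 was not called without HB replicate 1, HF replicate 1 or HF replicate 2 (adjusted p = 0.099, 0.151 and 0.161). The member that fell was Nfe2l2, which encodes NRF2 itself, with 99.7 and 112 CPM in HB, against 216 and 255 CPM in HF (log2 change -1.16 ± 0.29, SE, adjusted p = 0.019). Nfe2l2 was not called without HB replicate 1, HF replicate 1 or HF replicate 2 (adjusted p = 0.0595, 0.0692 and 0.125). Nor was Nqo1 called under total counts, with the length trend removed or in the RPKM fits (adjusted p = 0.0504 to 0.0637). Nqo1 and Nfe2l2 moved in opposite directions. Hmox1, heme oxygenase, had 20.6 and 20.5 CPM in HB, against 9.55 and 14.9 CPM in HF and was not called (adjusted p = 0.117). Of 21 ATF4 target genes, 2 rose and none fell, near the 11.3% and below the 10.1% of all genes. Of 36 proteasome genes, which remove damaged and tagged proteins, 17 rose (10 under total counts) and none fell, beside the same shares of all genes. Their median log2 change was 0.81, and 5 rises held, beside 1.44% of all genes tested. The largest of these, Psmd13, had 82.6 and 62.4 CPM in HB, against 12.9 and 17.4 CPM in HF (log2 change 2.26 ± 0.30, SE, adjusted p = 0.00403).

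The acute phase list, plasma proteins whose level shifts in inflammation and genes of their signalling, was split. Of 30 genes, 6 rose and 5 fell, beside 11.3% and 10.1% of all genes. Under total counts 4 rose and 8 fell, where 783 and 2320 of all 12817 genes tested did. Crp, C-reactive protein, had 269 and 209 CPM in HB, against 74.7 and 79.3 CPM in HF (log2 change 1.63 ± 0.29, SE, edgeR adjusted p = 0.00726), and held. Il1r1, given above, was the fall that held. Hamp, the iron hormone hepcidin, had 920.1 and 1332 CPM in HB, against 2211 and 3268 CPM in HF (log2 change -1.28 ± 0.33, SE, adjusted p = 0.0214). Hamp was not called without HB replicate 1 or HF replicate 2 (adjusted p = 0.108 and 0.115). Orm3, an orosomucoid, had 4.33 and 5.46 CPM in HB, against 46.7 and 15.7 CPM in HF (log2 change -2.67 ± 0.47, SE, adjusted p = 0.007). Orm3 was not called without HB replicate 1 (adjusted p = 0.0822). In Crp, Hamp and Orm3 the diets did not overlap, as in all but 3 of the 2740 genes called. Saa1 had 43.3 and 60.4 CPM in HB, against 50.9 and 27.9 CPM in HF, with overlapping diets and no call (adjusted p = 0.415), while Saa2, its close relative, had 25.6 and 36.8 CPM in HB, against 10.1 and 11.2 CPM in HF and rose (log2 change 1.55 ± 0.31, SE, adjusted p = 0.00948). Saa2 was not called without HF replicate 1 (adjusted p = 0.0752). The neutrophil markers given above were lower in HB, and their part in these values was not tested.

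Secretory genes rose more often than fell. Of 234 tested in 9 lists, 63 rose (26.9%) and 9 fell (3.85%), against 11.3% and 10.1% of all genes, with a median log2 change of 0.56, against 0.01 for all genes. Of those, 4 rises and 2 falls held, which is near the 1.44% and 1.34% of all genes that held. The median was 0.61 with HB replicate 1 alone and 0.54 with HB replicate 2 alone. Under total counts 43 rose and 17 fell, with a median of 0.28 where that of all genes was -0.28. That scaling left 4 rises among protease inhibitors, 6 among major urinary proteins and 6 among vesicle coat and cargo genes, against 7, 10 and 11 with TMM.

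Among secreted proteins the most abundant one was not called: albumin, Alb, had 70560 and 57190 CPM in HB, against 40710 and 47590 CPM in HF (log2 change 0.53 ± 0.29, SE, adjusted p = 0.21). Ahsg (fetuin A), a plasma glycoprotein, had 4935 and 6283 CPM in HB, against 2116 and 2764 CPM in HF and rose (log2 change 1.20 ± 0.31, SE, edgeR adjusted p = 0.0207). Ahsg was not called without HB replicate 1, HB replicate 2 or HF replicate 1 (adjusted p = 0.0513, 0.0558 and 0.153), nor in the RPKM fits (adjusted p = 0.0852 and 0.09). Selenop, the selenium carrier, had 5265 and 2931 CPM in HB, against 1003 and 1460 CPM in HF (log2 change 1.73 ± 0.36, SE, adjusted p = 0.0103). Selenop was not called without HB replicate 1 (adjusted p = 0.064). Both rises kept the diets apart without overlap, as did all but 3 of the 2740 genes called. Albumin did too, and over all 12817 genes tested the groups overlapped in 4500. Angptl8, a hepatokine that restrains lipoprotein lipase, had 36.7 and 38.7 CPM in HB, against 122 and 114 CPM in HF, fell and held (log2 change -1.65 ± 0.27, SE, adjusted p = 0.00593). Igf1, the growth factor that the liver releases under growth hormone, had 540.3 and 599 CPM in HB, against 1291 and 1036 CPM in HF and fell (log2 change -1.03 ± 0.29, SE, adjusted p = 0.0301). Igf1 was not called without HB replicate 1, HF replicate 1 or HF replicate 2 (adjusted p = 0.0861, 0.238 and 0.0575), nor with the length trend removed (adjusted p = 0.0597).

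Of 21 protease inhibitors of plasma, 7 rose and none fell, with a median log2 change of 0.84. These counts, and those of coagulation and complement genes below, stand beside 11.3% of all genes called higher and 10.1% lower. Serpina1a, an alpha-1-antitrypsin, had 10430 and 8505 CPM in HB, against 2629 and 3642 CPM in HF (log2 change 1.59 ± 0.31, SE, edgeR adjusted p = 0.00876). Serpina1a was not called without HB replicate 1 (adjusted p = 0.0519), and its near-identical copies can share its reads. Of 19 coagulation genes, 4 rose and none fell. F13b, the carrier subunit of factor XIII, had 159 and 74.3 CPM in HB, against 36.1 and 34.3 CPM in HF (log2 change 1.73 ± 0.36, SE, adjusted p = 0.0104), and held. Prothrombin, F2, had 1708 and 1844 CPM in HB, against 681 and 846 CPM in HF (log2 change 1.22 ± 0.29, SE, adjusted p = 0.0172). F2 was not called without HF replicate 1 (adjusted p = 0.168). Every HB library was above every HF library in these genes, by about 2 times or more. Of 25 complement genes, 9 rose and none fell, with a median of 0.64. C9, a pore-forming component, had 167 and 79.8 CPM in HB, against 21.5 and 35.7 CPM in HF (log2 change 2.11 ± 0.39, SE, adjusted p = 0.00772). C9 was not called without HB replicate 1 (adjusted p = 0.0549). C1qb and C1qc, which are also in the Kupffer cell list given above, were among the 9, and the part of those cells was not tested. Apom, the sphingosine 1-phosphate carrier of HDL, had 63.6 and 43.2 CPM in HB, against 12.1 and 11.7 CPM in HF (log2 change 2.17 ± 0.31, SE, adjusted p = 0.00424), and held, while Apoa1, the main HDL protein, had 8553 and 14380 CPM in HB, against 12200 and 10130 CPM in HF, with overlapping diets and no call (adjusted p = 0.943).

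Of 19 major urinary protein genes, male-predominant pheromone carriers, 10 rose and none fell, beside 11.3% and 10.1% of all genes. Their median log2 change was 1.36. The family is near-identical in sequence, so the division of reads between members is uncertain. Mup20 (darcin) had 4772 and 5960 CPM in HB, against 1333 and 2845 CPM in HF (log2 change 1.36 ± 0.37, SE, edgeR adjusted p = 0.0266). Mup20 was not called without HB replicate 1, HB replicate 2 or HF replicate 1 (adjusted p = 0.0918, 0.111 and 0.213). HF replicate 1 was the lower HF library, by about 2 times, and total counts also ended the call (adjusted p = 0.0554). Mup15, given above, was the member that held, and Mup3 had 7869 and 7360 CPM in HB, against 4116 and 4630 CPM in HF and missed the threshold (adjusted p = 0.067).

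Genes of the secretory machinery were called in both directions, rises more often, where 11.3% of all genes rose and 10.1% fell. Of 34 translocon and signal peptide genes, 10 rose and 2 fell, with a median log2 change of 0.71. Spcs1, a subunit of signal peptidase, had 45.4 and 20.4 CPM in HB, against 6.63 and 6.43 CPM in HF (log2 change 2.33 ± 0.40, SE, edgeR adjusted p = 0.00634), and held. Magt1, a subunit of an oligosaccharyltransferase form, had 72.8 and 66.3 CPM in HB, against 239 and 218 CPM in HF (log2 change -1.72 ± 0.29, SE, adjusted p = 0.00598), and held as a fall. Sec61b, of the translocon channel, had 98.8 and 112 CPM in HB, against 32.7 and 51.7 CPM in HF (log2 change 1.32 ± 0.31, SE, adjusted p = 0.0146). Sec61b was not called without HB replicate 1 or HF replicate 1 (adjusted p = 0.0549 and 0.22). Of 43 genes of vesicle coats and cargo transport, 11 rose and 2 fell, with a median of 0.56, and none held. Arf4, a GTPase that recruits coats, had 136 and 90.6 CPM in HB, against 37.4 and 41.99 CPM in HF (log2 change 1.51 ± 0.30, SE, adjusted p = 0.00903). Arf4 was not called without HF replicate 1 (adjusted p = 0.0692). Of 33 N-glycan genes, 5 rose and 3 fell, or 3 and 4 under total counts, and none held. The 5 rises and 3 falls lie near the 11.3% and 10.1% of all genes. St6gal1, which caps plasma glycans with sialic acid, had 63.7 and 27.04 CPM in HB, against 10.1 and 11.7 CPM in HF (log2 change 2.06 ± 0.39, SE, adjusted p = 0.00821). St6gal1 was not called without HB replicate 1 (adjusted p = 0.0508).

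**Figure D4:**
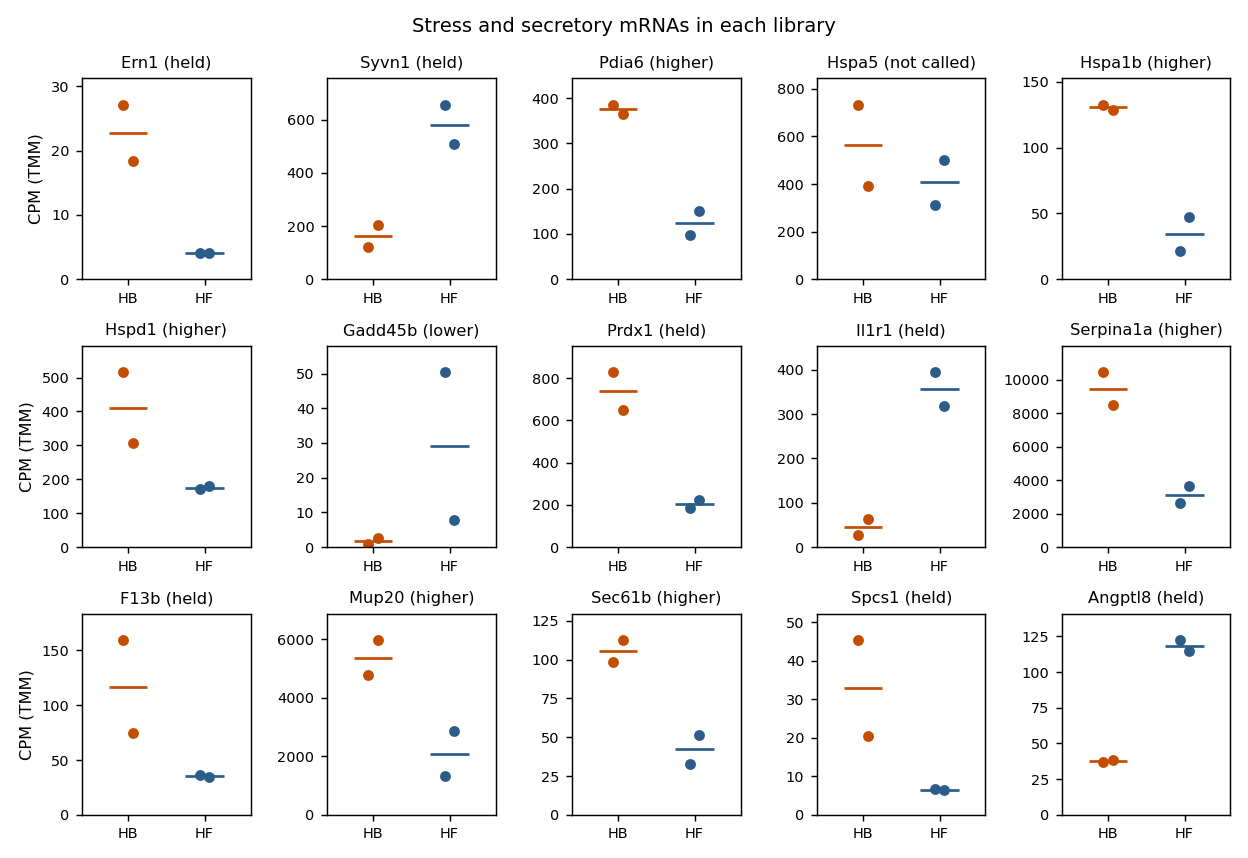
CPM (TMM-scaled) of 15 stress and secretory genes in each library, HB left and HF right, with points for libraries and a bar for the mean of 2. Ern1 and Syvn1 separate in opposite directions, Hspa5 overlaps, and the HF libraries of Gadd45b lie far apart.

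**Figure D5:**
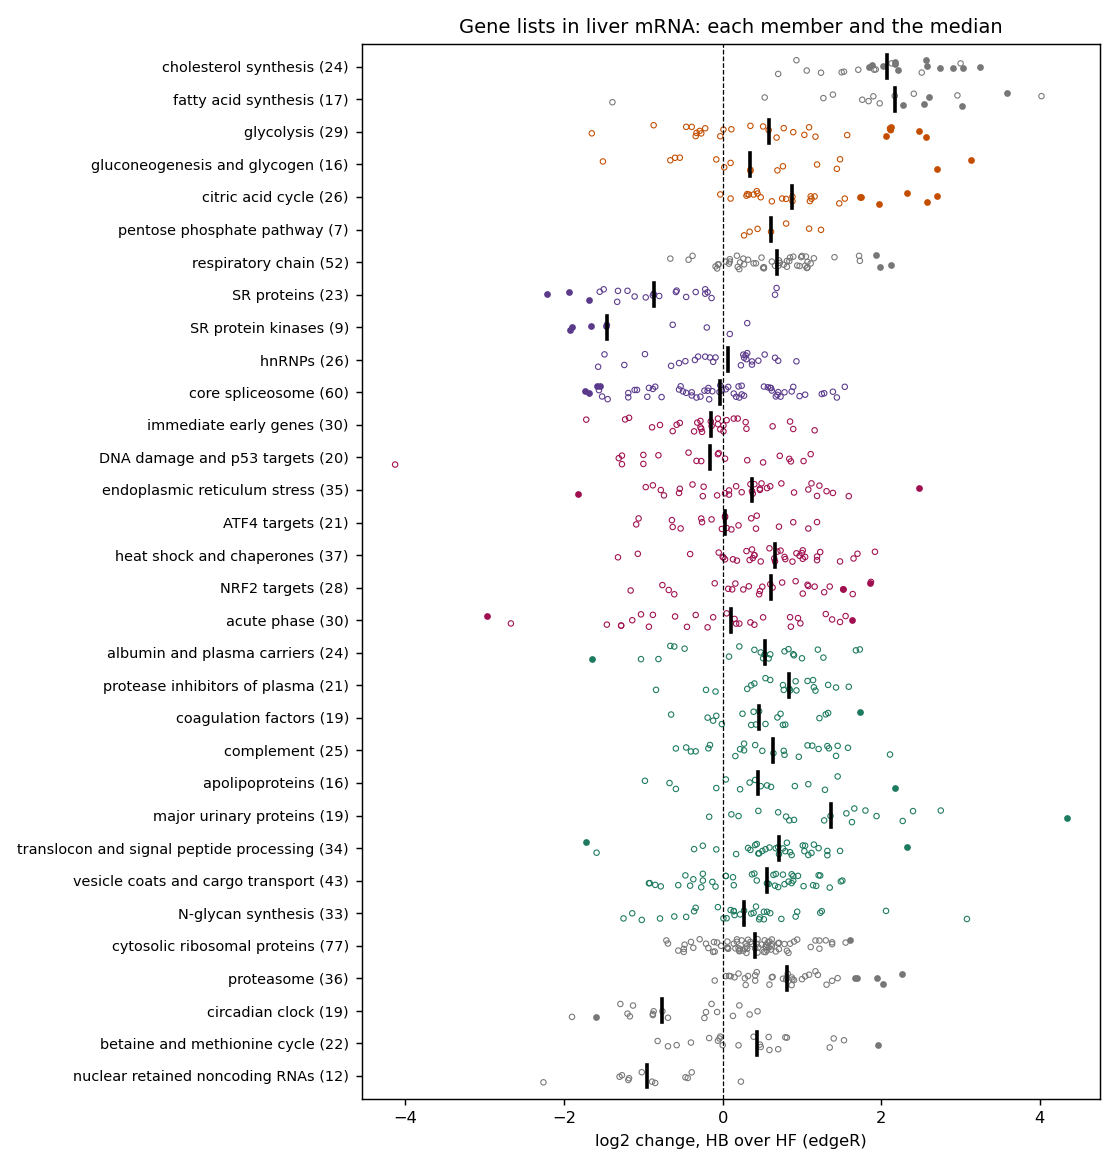
Each row is a gene list with its number of genes tested, each point a member's log2 change of HB over HF, filled where it held, and the black bar is the list's median. The medians of SR proteins and their kinases lie left of 0 (-0.87 and -1.46), and those of the citric acid cycle, proteasome and major urinary proteins lie right of it (0.88, 0.81 and 1.36).

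Of 22 genes of the betaine and methionine cycle, 4 rose and none fell, against 11.3% and 10.1% of all genes. Bhmt had 2845 and 3432 CPM in HB, against 3358 and 1425 CPM in HF, with overlapping diets and no call (adjusted p = 0.486). For lipid synthesis, 22 of 24 cholesterol synthesis genes rose and 12 held, and 13 of 17 fatty acid synthesis genes rose and 5 held, against 11.3% and 1.44% of all genes. The remaining call among the 17 was a fall, of the lipogenic regulator Mlxipl (ChREBP), which had 516 and 693 CPM in HB, against 1457 and 1706 CPM in HF (log2 change -1.39 ± 0.31, SE, adjusted p = 0.0124). Mlxipl was not called without HB replicate 1 (adjusted p = 0.0582). Among fatty acid synthesis genes, the call of Pnpla3, a lipid droplet protein, rested on 1 library. Pnpla3 had 87.1 and 2.16 CPM in HB, against 2.84 and 2.67 CPM in HF, a log2 change of 4.02 ± 1.11 (SE, edgeR adjusted p = 0.027), but HB replicate 2 lay below both HF libraries. Without HB replicate 1 its log2 change was -0.35 (adjusted p = 0.653), and DESeq2, voom and limma on RPKM did not call it (adjusted p = 0.0966 to 0.278). Of the 184 rises that held, 50 were in one of the lists used here, and of the 172 falls that held, 16 were.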

How the data were processed

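The authors sequenced polyA+ RNA from liver and mapped reads to RefSeq RNA sequences, per the series' design text; mm10 is named in the submitters' processing notes, and the aligner and counter of these tables are not given in the sources used here. The deposited tables give read counts per gene, not normalized, and RPKM computed by the authors, per the file headers. Depth was 11437462 to 22492813 counts per library.

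Gene lists, named genes and tests were chosen with earlier results of these data known. The 4 mRNA libraries were fitted in edgeR 4.0.16 (R 4.3.3), with its own low-count filter, TMM scaling and the quasi-likelihood test, HB over HF, 2 residual degrees of freedom and a Benjamini-Hochberg adjusted p of 0.05. All adjusted p-values in the text come from this test unless another is named, those without a library from the same genes refitted. CPM uses TMM-scaled library sizes. RPKM enters alternatives as log2(RPKM + 0.1) and log2(RPKM + 1), tested with limma 3.58.1, which understates changes of low genes. DESeq2 1.42.0 and voom were alternatives. The main fit was also run on simulated counts with known changes and no shift particular to 1 library. That run cannot bear on calls that rest on such a shift. Named genes were the 10 largest changes per direction that held with a mean of at least 5 CPM, up to 4 called per list, and a set of fixed ones. Some of these genes are not reported here. Other genes named were chosen after their values were seen, mostly list members of known role. Same-numbered libraries did not deviate together (r = -0.114 over 12817 genes), so no pairing by number was seen. With 2 libraries per diet this correlation cannot decide whether the numbers mark a shared experiment. Ribosome-bound libraries entered 1 alternative, with their HB pair summed, and m6A peak lists were not used. Promoters are RefSeq, GRCm38.p6, matched by symbol.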

Additional observations from a re-analysis of the deposited data

How the results depend on the processing

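The comparison gave 2740 calls, 1446 higher and 1294 lower. Size factors by DESeq2's method gave 2769, no filter 3603, a mean of at least 5 CPM 2600, DESeq2 3031, voom 2683 and a removed trend on transcript length 2435. Total counts moved the split to 783 higher and 2320 lower, log2(RPKM + 0.1) in limma to 845 and 2126, and log2(RPKM + 1) to 811 and 2077. These 3 share a scaling to all reads, under which the median of all genes was -0.28, -0.24 and -0.16. Adding the ribosome-bound libraries to 1 fit, with their HB pair summed, gave 0 calls in edgeR (0 higher and 0 lower) with 1644 genes at an unadjusted p under 0.05. The common dispersion was 0.481 in that fit and 0.0644 in the main fit. Median log2 changes there were 0.70 for sugar metabolism, -0.20 for splicing, 0.26 for stress and 0.58 for secretory genes. In the main fit they were 0.69, -0.22, 0.24 and 0.56. The cause of the lost calls was not tested.

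Leaving out 1 library gave from 776 (without HF replicate 1) to 3024 calls (without HB replicate 2), 338 to 1551 of them higher and 259 to 1473 lower. Without HB replicate 1 there were 787 calls and without HF replicate 2 there were 1539. The log2 change of Pnpla3 reversed to -0.35 without HB replicate 1, and was 4.98 without HB replicate 2.

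With the replicate number as a block, 2936 genes were called, 1479 higher and 1457 lower. No pairing by number was seen, and pairing the libraries crosswise, chosen after seeing the data, gave 3407 calls, 1700 higher and 1707 lower. The HB libraries were deeper, with 22492813 and 18011999 reads against 11437462 and 11570775 in HF. With 2 libraries per diet, not stated to be separate pools, the difference between mice was not measured. At 2 residual degrees of freedom, differences near the spread between libraries were not detectable.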
